A study of Mus musculus with 66 samples.

Results

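The balance between intron and exon signal in newly made RNA was followed in 3T9-MycER mouse fibroblasts 30 min after the transcription factor Myc was switched on. The comparison took the 3 libraries of labelled RNA at 30 min and the 3 at 0 min, which are 6 of the 66 libraries of the series. In each library the log2 ratio of a gene's intron value to its exon value was taken after 2 was added to both, and its mean at 30 min was set against its mean at 0 min. The intron and exon changes themselves were tested beside the ratio. Of the 11513 genes in the tables, 11481 had enough signal in both introns and exons for the ratio test, 11506 for the intron test and 11488 for the exon test.

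All cells were 3T9 fibroblasts from E13.5 mouse embryos, with the genotype c-mycflox/flox, and all were infected in vitro with MycER through the viral vector pBabe bleomycin MycER. MycER joins Myc to the hormone-binding part of the oestrogen receptor, so that 4-hydroxytamoxifen (OHT) sends it into the nucleus. The 30 min group received 400 nM OHT for 30 min and the 0 min group received none. Both groups carry the floxed c-myc alleles and the MycER vector. Both were given 300 µM 4-thiouridine (4sU), a uridine analogue that enters new transcripts, for 10 min, after which the labelled RNA was biotinylated and captured on streptavidin beads. No time course without OHT was analysed here, so an effect of OHT itself and an effect of MycER cannot be told apart. Whether replicates came from separate cultures is not stated, so p-values reflect only how much these libraries vary, and that variation may be technical.

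An RNA polymerase that transcribes a gene copies introns and exons alike, and the spliceosome removes the introns within minutes. A short 4sU pulse therefore catches many transcripts that still hold introns, whereas exon reads come both from these and from spliced RNA. When transcription of a gene changes abruptly, its introns are known to follow first, and exon signal follows as transcripts are completed and spliced. Myc works as a heterodimer with Max, binds E-boxes such as CACGTG in open promoters, and is best known in fibroblasts for raising genes of ribosome production and metabolism.

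The deposited values of the 6 libraries summed to between 12498107 and 13806462 over exons and between 33254079 and 39258946 over introns. Introns held 71.79%, 74.2% and 70.66% of the summed values in replicates 1, 2 and 3 at 0 min, and 73.71%, 74.96% and 75.85% at 30 min. Fibroblast markers had a summed expression of 1080 to 1310 RPKM (reads per kilobase of transcript, scaled to library size) at 0 min and 1010 to 1220 RPKM at 30 min over the 7 of 8 markers in the tables. None of 5 epithelial markers was in the tables. The 2 immune markers Ptprc and Cd68 summed to 3.15 to 3.63 RPKM at 0 min and 3.86 to 4.86 RPKM at 30 min, the 2 neural markers Tubb3 and Sox10 to 0.83 to 1.62 RPKM and 1.17 to 1.7 RPKM, and the endothelial marker Pecam1 was at or under 0.0501 RPKM in all 6 libraries. The part of the immune markers' rise in any result was not tested.

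Before single genes are described, the libraries as a whole need a word, because a shift of all introns would move every ratio. The median log2 ratio over genes was 0.98, 1.08 and 0.87 in replicates 1, 2 and 3 at 0 min and 1.02, 1.10 and 1.16 at 30 min. The groups overlapped: replicate 2 at 0 min lay above replicate 1 at 30 min. The mean rose from 0.98 ± 0.10 to 1.09 ± 0.07 (SD, n = 3 each), a difference of 0.12. A two-sided exact permutation test gave p = 0.2, but with 3 libraries a group it cannot go below 0.1 and so cannot settle whether the medians differ. This offset is contained in every ratio change given here unless a value is said to be centred, which means that each library's median was subtracted first. Replicate 3 had the lowest median at 0 min and the highest at 30 min. Many results that rest on these 2 libraries are given with and without them. The split of ratio calls into intron and exon calls, the E-box shares and the shares by gene span are given with all libraries only.

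**Figure D1:**
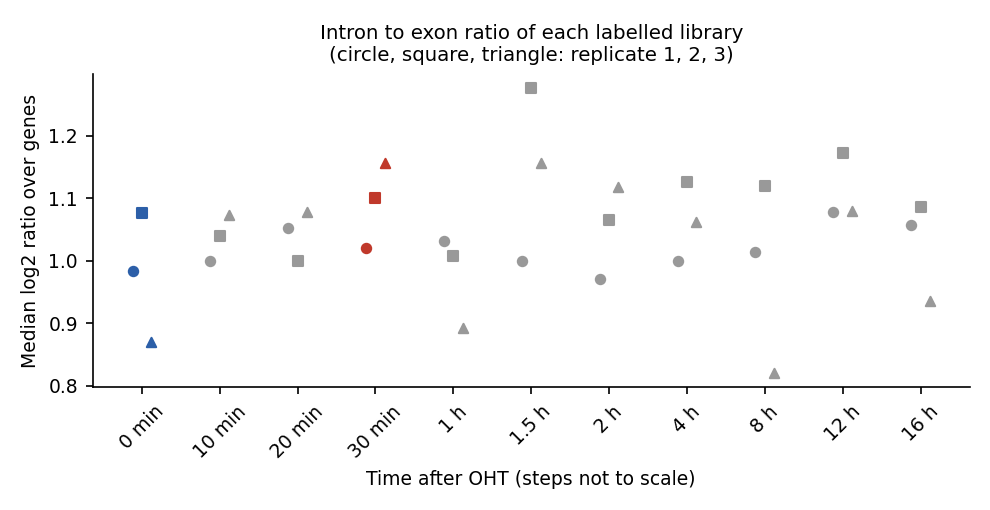
Median log2 intron to exon ratio over genes (vertical axis, no unit) of each of the 33 labelled libraries by time after OHT (horizontal axis, steps not to scale); symbols mark the replicate number, and 0 min is blue and 30 min red. The 0 min libraries lie between 0.87 and 1.08 and the 30 min libraries between 1.02 and 1.16, and the spread within a time is as wide at several later times.

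At 30 min the introns had moved in many genes and the exons in fewer. Intron signal rose in 2553 genes (22.2% of those tested) and fell in 2302 (20%). Exon signal rose in 921 genes (8.02%) and fell in 415 (3.61%). The intron to exon ratio was higher at 30 min in 1110 genes (9.67% of those tested) and lower in 132 (1.15%). All calls are from limma with Benjamini-Hochberg adjustment over all genes at an adjusted p under 0.05. In these bulk samples, fewer cells with a transcript and less RNA per cell cannot be told apart.

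The direction of the ratio calls depended on the offset between libraries. Of the genes called, 89.4% had the higher ratio at 30 min, against 62.7% after centring (1056 higher, 629 lower) and 63.4% when introns and exons were first scaled separately (1058 higher, 611 lower). Without replicate 3 of 0 min, 368 genes were higher and 54 lower, and without replicate 3 of 30 min, 430 were higher and 44 lower. The lower calls numbered 84 without replicate 1 of 0 min. With the 6 libraries alone, which leaves far fewer samples to estimate the spread, 135 were higher and 9 lower. The intron calls were 52.6% upward, against 35.3% when libraries were scaled to equal sums (1809 up, 3314 down) and 59.1% with no further scaling. The exon calls were 68.9% upward, against 59.8% with equal sums and 36.8% with no further scaling (491 up, 845 down). Exon calls numbered 583 up and 235 down without replicate 3 of 0 min, 557 up and 183 down without replicate 3 of 30 min, and 246 down without replicate 2 of 0 min.

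Each ratio call was set beside the intron and exon calls of the same gene. The ratio was fitted on deposited values, whereas introns and exons were each scaled first. A ratio change given here is therefore not exactly the intron change less the exon change. The median ratio change over all genes was 0.107 as reported and -0.00579 from scaled values. Among the 1110 genes with a higher ratio, 665 had an intron rise with no exon call, 377 had rises of both, 66 had neither call and 2 had an exon fall alone. Among the 132 with a lower ratio, 98 had an intron fall with no exon call, 13 had falls of both, 11 had an exon rise alone, 8 had neither call, 1 had an intron fall with an exon rise and 1 had rises of both. Seen from the introns, the 2553 rising genes had a median log2 change of 0.43 in introns and 0.18 in exons, and exons were also called up in 817 of the 2551 with an exon test (32%). The 2302 falling genes had medians of -0.42 and -0.18, and exons were also called down in 375 (16.3%). These counts describe values taken from the same 6 libraries. The difference between 32% and 16.3% was not tested.

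**Figure D2:**
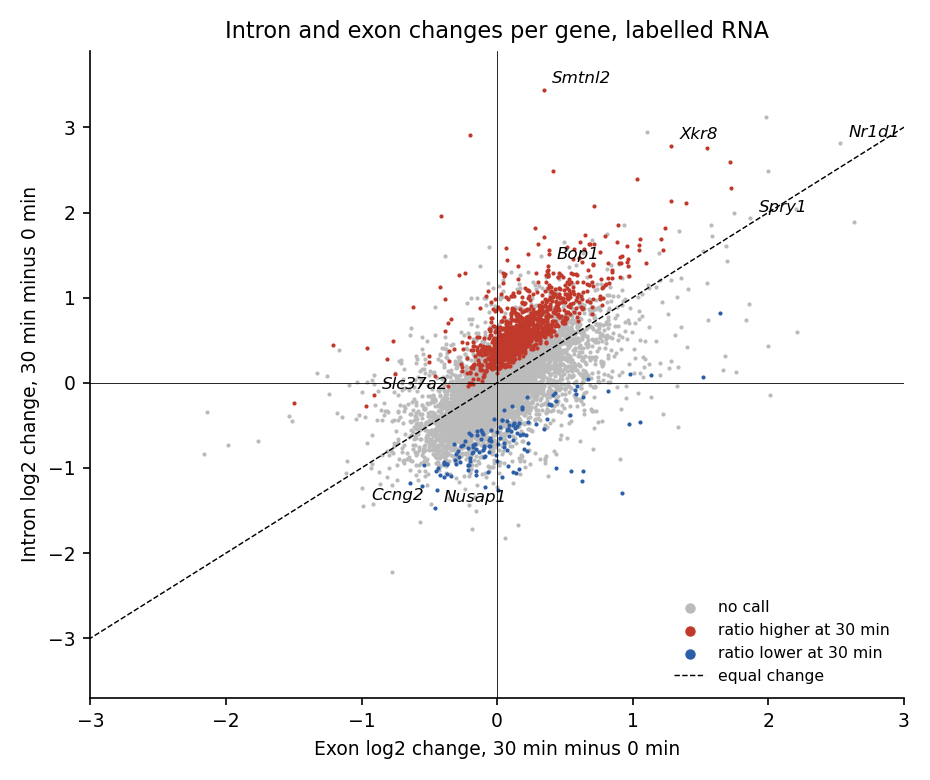
Log2 change in introns (vertical axis) against log2 change in exons (horizontal axis) from 0 min to 30 min, 1 point per gene; red and blue mark genes with a higher or lower intron to exon ratio at 30 min by limma, grey marks the rest, and the dashed line marks equal change. The 1110 red genes lie above the line and the 132 blue genes below it, while Nr1d1 and Spry1 lie close to it.

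The ratio genes named here were called, had groups that do not overlap, and averaged 50 or more in 1 of the groups in both tables. Genes named for the size of an intron or exon change had to meet the same conditions in the table concerned. Smtnl2 had the largest rise among them. It codes for a smoothelin-like protein. Its introns had deposited values of 10, 5 and 4 in the 3 libraries at 0 min and 67, 90 and 72 at 30 min, and its exons 173, 187 and 154 against 174, 203 and 244. The intron values did not overlap between the groups, and the exon values did. The log2 ratio rose by 3.03 ± 0.23 (standard error; limma, adjusted p = 6.4e-09), with a log2 intron change of 3.44 ± 0.24 and an exon change of 0.34 ± 0.16 (adjusted p = 0.17). The gene lies on chromosome 11 from 72202666 to 72225215 on the minus strand (mm9), with no other annotated gene over it. In total RNA, measured in separate libraries, its log2 intron change was 4.61 (adjusted p = 1.4e-13) and its exon change 0.29 (adjusted p = 0.48).

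Aif1l and Il17d had a called intron rise and no exon call. Aif1l, which codes for an actin-bundling protein, had intron values of 90, 104 and 60 at 0 min and 336, 257 and 311 at 30 min, while its exons stood at 83, 67 and 71 and at 107, 73 and 77. Its log2 ratio rose by 1.64 ± 0.26 (limma, adjusted p = 0.00015). Il17d, which codes for a cytokine of the interleukin 17 family, had intron values of 322, 269 and 270 against 1019, 893 and 969, with exons at 55, 35 and 56 against 56, 62 and 55. Its ratio rose by 1.47 ± 0.21, and its deposited exon values overlapped between the groups.

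Dgat2, whose product makes triglycerides, had intron values of 222, 147 and 165 at 0 min and 792, 733 and 762 at 30 min. Here the exons rose as well, from 97, 55 and 80 to 118, 127 and 108, and the ratio rose by 1.48 ± 0.19. The log2 intron change was 2.08 and the exon change 0.71. Smpdl3b, which codes for a lipid-modifying phosphodiesterase, had introns at 135, 122 and 138 against 388, 429 and 442 and exons at 78, 74 and 102 against 93, 101 and 100. The ratio rose by 1.44 ± 0.17, and only its introns were called. Xkr8 codes for a phospholipid scramblase and lies on the minus strand of chromosome 4 from 132280812 to 132288461, next to Smpdl3b on the same strand from 132288881 to 132313167. It rose in both tables: introns went from 51, 38 and 23 to 242, 269 and 259 and exons from 254, 235 and 241 to 518, 578 and 590. Its log2 changes were 2.79 in introns and 1.28 in exons, and its ratio rose by 1.58 ± 0.18.

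Smtnl2, Xkr8, Gchfr and Ccdc107 had low intron values at 0 min, at most 58 in any library, so their ratios there rest on little signal. Gchfr, which codes for the feedback regulator of GTP cyclohydrolase, had intron values of 24, 24 and 8 against 52, 33 and 89 and a ratio rise of 1.57 ± 0.43. This call was lost without replicate 3 of 0 min (1.02, limma, adjusted p = 0.205), without replicate 3 of 30 min (1.10, adjusted p = 0.18) and in the 6 libraries alone (adjusted p = 0.163). Ccdc107 had intron values of 58, 47 and 43 against 130, 134 and 151, and its ratio rose by 1.47 ± 0.17. An RNase MRP gene overlaps Ccdc107 on the opposite strand. Whether counting used strand is not given in the sources used here, so reads of the 2 cannot be told apart.

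**Figure D3:**
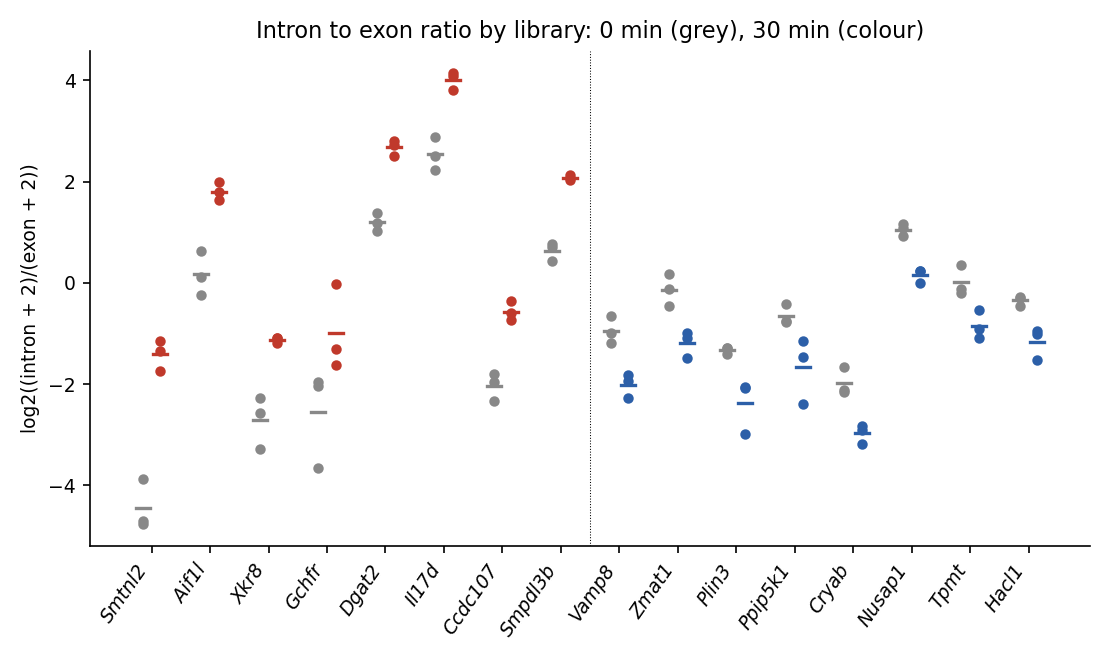
Log2((intron value + 2)/(exon value + 2)) in each library for the 8 genes with the largest rise (left of the dotted line) and the 8 with the largest fall in ratio; points are libraries, bars are means of 3, grey is 0 min and colour 30 min. These genes were chosen for groups that do not overlap, and Gchfr has the widest spread within each group.

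The 8 largest falls in ratio by the same rule lay between -1.07 and -0.82. Nusap1, which codes for a spindle microtubule protein, had intron values of 2100, 2329 and 2133 at 0 min and 719, 893 and 815 at 30 min. Its exons went from 994, 1044 and 1122 to 721, 761 and 688, so that both fell without overlap and the introns fell further. The log2 ratio fell by 0.90 (standard error 0.14; limma, adjusted p = 0.00014), the introns by 1.47 and the exons by 0.46. Nusap1 lies on chromosome 2 from 119444034 to 119476980 on the plus strand, and Oip5 overlaps it on the opposite strand.

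In the other 7 of these genes the introns fell and no exon change was called. Vamp8, a SNARE of late endosomes, had introns at 100, 105 and 105 against 46, 60 and 46 and exons at 159, 210 and 241 against 181, 218 and 230, a ratio change of -1.07 ± 0.27. Plin3, a lipid droplet coat gene, had introns at 115, 125 and 123 against 60, 80 and 43 and a ratio change of -1.05 ± 0.25. Cryab, a small heat shock protein gene, had introns at 84, 94 and 104 against 32, 52 and 40 and a ratio change of -0.999 ± 0.22. In each of these 3 the intron groups did not overlap and the exon groups did.

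Zmat1, Ppip5k1, Tpmt and Hacl1 had ratio changes of -1.05, -1.02, -0.86 and -0.82. Ppip5k1 makes inositol pyrophosphates, Tpmt methylates thiopurines and Hacl1 shortens branched fatty acids in peroxisomes. Ppip5k1 overlaps Map1a, which lies on the opposite strand, and Map1a introns also fell, from 56, 63 and 84 to 16, 50 and 22. The fall of Vamp8 was not called without replicate 1 of 0 min (adjusted p = 0.0654) or replicate 3 of 30 min (0.0855), that of Plin3 without replicate 3 of 30 min (0.1), and that of Zmat1 without replicate 3 of 0 min (0.0502). In the 6 libraries alone, limma called neither Zmat1, Plin3, Ppip5k1, Cryab, Tpmt nor Hacl1, with adjusted p values from 0.0576 for Cryab to 0.122 for Ppip5k1.

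Some of the strongest responses in introns and exons came without a called change in ratio. Nr1d1, which codes for the clock repressor REV-ERBα, had introns at 190, 184 and 145 at 0 min and 1123, 1176 and 1445 at 30 min, and exons at 361, 283 and 285 against 1585, 1546 and 1959. The groups did not overlap in either table, which was a condition for its place among the largest rises. The log2 change was 2.81 ± 0.14 in introns and 2.53 ± 0.11 in exons, and the ratio change of 0.39 ± 0.15 did not pass (limma, adjusted p = 0.089), though it did without replicate 2 of 0 min (0.50, adjusted p = 0.0388). Nr1d1 spans chromosome 11 from 98629246 to 98636647, and Thra overlaps it on the opposite strand. Its exons were also up in total RNA, by 2.04 on the log2 scale.

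Slc30a1, the zinc exporter gene, had introns at 41, 28 and 37 against 213, 172 and 235 and exons at 232, 243 and 192 against 741, 826 and 967. Its log2 changes were 2.49 in introns and 2.00 in exons, with a ratio change of 0.57 (limma, adjusted p = 0.054). That change is as large as some that were called, and it was called among genes with a mean of at least 50 (limma, adjusted p = 0.0361), with 1 added in place of 2 (0.0445) and without replicate 2 of 30 min (0.0482). Spry1, an inhibitor of growth factor receptor signalling, rose from 71, 67 and 45 to 195, 238 and 288 in introns and from 103, 113 and 89 to 388, 313 and 357 in exons. Its 2 changes were 1.94 and 1.87, and the ratio change was 0.18 ± 0.15. Dusp2, a MAP kinase phosphatase gene, had changes of 2.00 in introns and 1.75 in exons, with a ratio change of 0.29 that was not called.

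P2ry2, a receptor for extracellular nucleotides, rose in both tables and in ratio. Its introns were at 46, 26 and 30 against 241, 219 and 243 and its exons at 21, 15 and 15 against 87, 39 and 33, and the ratio rose by 1.33 ± 0.24 (limma, adjusted p = 0.00068). St6galnac4, a sialyltransferase gene, had introns at 352, 318 and 219 against 1342, 1473 and 1549 and exons at 588, 426 and 533 against 1622, 1573 and 1596. Its ratio rose by 0.67 ± 0.14. Rasl11a, a Ras-like GTPase gene with intron values of at most 19 at 0 min, had a ratio rise of 0.92 ± 0.20. In the 6 libraries alone the ratio calls of P2ry2 (adjusted p = 0.0812), Rasl11a (0.0765) and St6galnac4 (0.141) were lost.

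Among the strongest falls were 2 genes that restrain the cell cycle, and in both the exons fell with the introns. Ccng2, which codes for the arrest-associated cyclin G2, had introns at 485, 535 and 456 against 168, 202 and 181 and exons at 400, 425 and 472 against 200, 218 and 197. The log2 changes were -1.45 and -0.99, and the ratio change of -0.35 ± 0.18 was not called (limma, adjusted p = 0.22), though it was after centring (-0.46, adjusted p = 0.0462). Cdkn2c, the gene of the CDK inhibitor p18, had introns at 357, 453 and 371 against 154, 175 and 182 and exons at 329, 378 and 338 against 145, 224 and 136. Its changes were -1.23 and -0.997, with a ratio change of -0.12. Both genes fell in introns and exons without overlap between the groups, which was a condition for their place among the largest falls.

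Zfp128 and Amn1 fell in both tables as well, by 1.06 and 1.05 in introns and by 1.11 and 0.87 in exons on the log2 scale. Suox, the sulphite oxidase gene, had an exon change of -0.92 that was not called without any of the 3 libraries of 0 min, nor without replicate 2 or 3 of 30 min (limma, adjusted p from 0.0522 to 0.306), and its introns had values of at most 17. Mospd1 and Vwa5a fell in introns by 1.26 each, with no exon call. Slc37a2, a sugar phosphate exchanger gene, went the other way: its introns were at 147, 148 and 176 against 163, 142 and 131 while its exons fell from 65, 54 and 61 to 31, 29 and 29. Its ratio rose by 0.86 ± 0.21 (limma, adjusted p = 0.0086) through the exon fall alone.

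The 14 lists of genes with known roles that follow were read against the shares of all genes given above. The members were chosen with earlier results of these data known, so their counts describe the lists and test nothing about them. The median change over all genes tested was 0.11 for the ratio and 0.00 for introns and for exons.

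Ribosome biogenesis factors, which assemble ribosomal subunits in the nucleolus, were higher in introns in 31 of 39 members and lower in none, higher in exons in 17 and higher in ratio in 16. Their median log2 changes were 0.46 in introns, 0.20 in exons and 0.34 in ratio. Bop1, a factor of the large subunit, had introns at 2371, 1913 and 2003 against 5138, 5558 and 5973 and exons at 1616, 1347 and 1802 against 1974, 1903 and 1926. The ratio rose by 1.12 ± 0.15 (limma, adjusted p = 1.7e-05), and neither introns nor exons overlapped between the groups. Rrp9, a U3 snoRNP protein gene, had introns at 604, 460 and 485 against 1541, 1696 and 1994 and exons at 1080, 837 and 1027 against 1670, 1636 and 1494, with a ratio rise of 1.04 ± 0.15. Nop16, Ebna1bp2, Ddx10, Fbl and Imp4 had ratio rises of 0.78, 0.66, 0.65, 0.63 and 0.59.

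Fbl, the gene of the rRNA methyltransferase fibrillarin, rose by 0.51 in introns with an exon change of 0.00, whereas Utp14a rose by 0.47 in introns and 0.32 in exons. Ncl, the gene of nucleolin and a host of 3 annotated snoRNAs, had introns at 5865, 6123 and 4879 against 9031, 8005 and 9506 and a ratio change of 0.50 that did not pass (limma, adjusted p = 0.060), though it did after centring (0.38, adjusted p = 0.0238). The list's ratio count fell to 7 without replicate 3 of 0 min and to 8 without replicate 3 of 30 min, and was 19 after centring. Its exon count fell to 7 with no further scaling.

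RNA polymerases I and III and their factors, which make ribosomal RNA and transfer RNA, were higher in introns in 20 of 40 members and lower in 4. Exons were higher in 12 and lower in 1, and the ratio was higher in 13 and lower in none. Polr3g, a polymerase III subunit gene, had introns at 2570, 2675 and 2027 against 4356, 4398 and 4770 and exons at 753, 668 and 659 against 864, 733 and 697, a ratio rise of 0.77 ± 0.11 with no exon call. The ratio count was 5 without replicate 3 of either group, and in the 6 libraries alone the ratio of Polr3g was not called (limma, adjusted p = 0.0581). With no further scaling the exon count was 7 higher and 2 lower. Ttf1, which codes for a polymerase I terminator, fell in introns by 0.63 and in exons by 0.29, and Gtf3c3, Gtf3c6 and Polr3c fell in introns only.

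Amino acid transporter genes were higher in ratio in 8 of 18 members, in introns in 11 and in exons in 7, with no member lower. Slc7a2, which carries cationic amino acids, had introns at 2915, 3450 and 2544 against 5805, 5961 and 5930 and a ratio rise of 0.71 ± 0.11. Slc43a2 had introns at 332, 331 and 322 against 967, 902 and 975 and exons at 160, 118 and 128 against 232, 229 and 263, with a ratio rise of 0.69 ± 0.11. Slc7a1, Slc7a5 and Slc1a5, carriers of arginine, leucine and glutamine, had ratio rises of 1.00, 0.86 and 0.71. The count was 6 without replicate 3 of 0 min and 7 without replicate 3 of 30 min. In the 6 libraries alone the calls of Slc7a2 (limma, adjusted p = 0.0675) and Slc43a2 (0.0566) were lost.

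Nucleotide synthesis genes were higher in introns in 14 of 26 members and lower in 1, higher in exons in 5 and higher in ratio in 5. Ppat, which starts purine synthesis, had introns at 6189, 5942 and 5287 against 12325, 12351 and 12855 and exons at 1936, 1613 and 1675 against 2657, 2630 and 2510, and its ratio rose by 0.53 ± 0.12. Cad, which starts pyrimidine synthesis, had introns at 1286, 1223 and 1160 against 1658, 1909 and 2081 and exons at 4488, 3473 and 4329 against 4220, 4073 and 4405. Its exons overlapped between the groups and its ratio rose by 0.56 ± 0.16. Prps1 rose by 0.67 in ratio, a call lost without replicate 3 of either group. In the 6 libraries alone the calls of Ppat (limma, adjusted p = 0.0588) and Prps1 (0.149) were lost. The 1 lower member in introns was Rrm2, a subunit of ribonucleotide reductase, with a change of -0.45. The ratio was called in 1 member without replicate 3 of 0 min, in 1 without replicate 3 of 30 min and in 8, with 1 lower, after centring. The exon count was 1 with no further scaling and without replicate 3 of 0 min, and 3 without replicate 3 of 30 min.

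Of the named Myc targets outside these lists, Odc1, the gene that opens polyamine synthesis, had introns at 1160, 1048 and 905 against 1432, 1337 and 1612 and exons at 4428, 3498 and 4222 against 4306, 3575 and 3605. Its ratio rose by 0.57 ± 0.17 (limma, adjusted p = 0.032). The calls of Odc1 and Cad were lost in the 6 libraries alone and without replicate 1 or 3 of 0 min or replicate 2 or 3 of 30 min. Ccnd2, the gene of cyclin D2, had introns at 2233, 2366 and 2071 against 4278, 5014 and 5080 and exons at 2726, 2604 and 2994 against 3441, 3424 and 3469, with a ratio rise of 0.79 ± 0.18 whose call was lost in the 6 libraries alone (limma, adjusted p = 0.0508). Cdkn1a, a CDK inhibitor gene, was near the lower limit of the tables, with introns of 13 to 30 and exons of 16 to 41 in the 6 libraries and no call.

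In the Myc network, the set of dimer partners and rivals of Myc, 5 of 9 members were higher in introns, 3 in exons and 2 in ratio. Max, the obligate partner of Myc, had introns at 3746, 3867 and 3260 against 7170, 7738 and 8845 and exons at 653, 633 and 694 against 959, 883 and 862. Its ratio rose by 0.68 ± 0.14 (limma, adjusted p = 0.0027), a call lost in the 6 libraries alone (adjusted p = 0.0716). Mlxip, a glucose-responsive relative, had introns at 4017, 3809 and 3661 against 8564, 9028 and 10279 and exons at 1503, 1268 and 1511 against 1925, 1812 and 1920, with a ratio rise of 0.87 ± 0.14. Mnt, a repressor that competes for Max, rose by 0.89 in introns and 0.71 in exons, with a ratio change of 0.30 that was not called. Myc itself, whose reads can come from the endogenous gene and the MycER vector, had introns at 1387, 1157 and 1305 against 1290, 1128 and 1381 and exons at 4033, 2700 and 3621 against 3487, 2804 and 3569, with full overlap and no call.

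Clock genes, the transcription factors of the circadian loop and their outputs, were higher in introns in 11 of 18 members and in exons in 9, and in ratio in 4. Their median changes of 0.77 in introns and 0.49 in exons were the highest of the 14 lists. Cry1, a repressor of the loop, had introns at 1644, 1504 and 1403 against 3151, 2824 and 3787 and exons at 290, 221 and 225 against 313, 268 and 342. Its ratio rose by 0.76 ± 0.12, while the call of its exon change of 0.41 was lost without replicate 2 or 3 of 0 min or replicate 1 or 3 of 30 min, and with no further scaling (0.33, adjusted p = 0.116). Tef, an output transcription factor, had introns at 813, 601 and 521 against 1283, 1217 and 1452 and a ratio rise of 0.51 ± 0.11, whose call was lost without replicate 3 of 0 min (limma, adjusted p = 0.0561) and in the 6 libraries alone (0.103). Nr1d2 and Per2 had ratio rises of 0.57 and 0.58. Bhlhe41 and Cry2 rose by 1.53 and 0.88 in introns and by 1.19 and 0.83 in exons, without a ratio call. The ratio was called in 1 clock gene without replicate 3 of 0 min and in 2 without replicate 3 of 30 min.

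The E-box CACGTG, which reads the same on both strands, was searched in promoter windows from RefSeq (GRCm38.p6) that run from 250 bases before to 50 after the start of a gene. It was present in 7.15% of all 32851 windows and in 1112 of the 9216 genes of the tables with a window (12.1%). Among genes with a higher ratio at 30 min 17% held it, against 8.93% of those with a lower ratio and 11.6% of the rest. Among genes with rising, falling and uncalled introns the shares were 15.1%, 9.4% and 11.8%. These shares are descriptions without a test, and a match is not evidence of binding. The windows of Max (chr12:76962219-76962498, minus strand), Cry1 (chr10:85185025-85185304, minus strand), Tef (chr15:81802423-81802702, plus strand) and Dusp2 (chr2:127335909-127336188, plus strand) are shown because these risers hold the motif before or at their start, up to 30 bases past the start, with CACGTG in capitals.
Max: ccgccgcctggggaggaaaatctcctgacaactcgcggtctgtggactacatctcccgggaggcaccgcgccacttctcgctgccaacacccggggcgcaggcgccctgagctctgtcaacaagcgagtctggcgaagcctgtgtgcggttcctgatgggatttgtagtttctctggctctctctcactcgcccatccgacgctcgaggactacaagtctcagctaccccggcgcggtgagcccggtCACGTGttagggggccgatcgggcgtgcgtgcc
Cry1: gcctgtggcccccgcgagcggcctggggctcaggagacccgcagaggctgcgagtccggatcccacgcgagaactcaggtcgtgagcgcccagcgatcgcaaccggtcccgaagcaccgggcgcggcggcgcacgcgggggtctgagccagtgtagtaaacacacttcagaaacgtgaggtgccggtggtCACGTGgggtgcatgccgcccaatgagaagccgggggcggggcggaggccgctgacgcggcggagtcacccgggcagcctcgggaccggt
Tef: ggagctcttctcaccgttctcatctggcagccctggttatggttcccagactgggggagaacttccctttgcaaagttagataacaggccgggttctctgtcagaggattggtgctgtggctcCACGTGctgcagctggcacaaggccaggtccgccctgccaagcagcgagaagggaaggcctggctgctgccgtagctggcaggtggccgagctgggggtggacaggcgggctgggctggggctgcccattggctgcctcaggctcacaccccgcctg
Dusp2: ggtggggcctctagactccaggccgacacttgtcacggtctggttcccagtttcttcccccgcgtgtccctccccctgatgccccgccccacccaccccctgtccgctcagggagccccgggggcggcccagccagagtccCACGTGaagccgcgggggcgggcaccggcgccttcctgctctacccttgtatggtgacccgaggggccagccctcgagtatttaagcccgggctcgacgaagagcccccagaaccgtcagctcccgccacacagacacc
The motif starts at position -3 in Max, -60 in Cry1, -127 in Tef and -109 in Dusp2, counted from the start site as +1. It also occurs in the windows of P2ry2, at 38, and Smpdl3b, at 43, and in that of Cdkn2c, which fell, at 35. No match was found in the windows of Nr1d1, Slc30a1, Spry1, St6galnac4, Smtnl2, Rrp9, Mlxip and Ppat, whose introns also rose.

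Immediate early genes, the first transcription factors induced by growth signals, were higher in introns in 9 of 23 members, in exons in 5 and in ratio in 2, and 1 had a lower ratio. The exon count was 2 without replicate 3 of either group. The ratio was higher in none and lower in 1 without replicate 3 of 0 min, and higher in 1 and lower in none without replicate 3 of 30 min. Nr4a3 rose by 2.05 in introns and 2.20 in exons, and its ratio change of 0.19 was not called. Nr4a2 was the member with the lower ratio: its introns were at 713, 793 and 568 against 628, 677 and 675, its exons at 55, 76 and 53 against 87, 85 and 85, and its ratio changed by -0.54 ± 0.15 (limma, adjusted p = 0.016). That call was lost without replicate 1 of 0 min or replicate 1 or 3 of 30 min, and in the 6 libraries alone. Srf, which drives such genes, rose by 0.59 in introns and 0.55 in ratio with an exon change of 0.16, and its ratio call was lost without replicate 1 or 3 of either group and in the 6 libraries alone. MAPK feedback genes were higher in introns in 7 of 15, with 1 lower, in exons in 3 and in ratio in 3, namely Dusp7 (0.76), Dusp14 (0.48) and Spred2 (0.33). No MAPK feedback gene had a ratio call without replicate 3 of either group, and in the 6 libraries alone the calls of Dusp7 (limma, adjusted p = 0.0627) and Dusp14 (0.0977) were lost.

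Mitosis genes, which are transcribed towards the end of the cell cycle, had lower values at 30 min. Introns were lower in 24 of 29 members and exons in 13, and neither was higher in any. Their median log2 changes were -0.43 in introns, -0.20 in exons and -0.14 in ratio. Cenpe, the kinetochore motor gene, had introns at 7067, 8460 and 7669 against 4155, 4072 and 4023 and exons at 6120, 6414 and 6524 against 4698, 4569 and 4638, with a ratio change of -0.46 ± 0.15 (limma, adjusted p = 0.049). Nusap1 was the other member with a called ratio. The exon count was 17 with no further scaling and 18 with equal sums, but 11 without replicate 3 of 0 min and 10 without replicate 3 of 30 min. After centring, 15 of the 29 had a lower ratio and none a higher one. Top2a, Aurka and Kif2c fell by 0.79, 0.74 and 0.68 in introns and by 0.34, 0.39 and 0.36 in exons on the log2 scale. The ratio call of Cenpe was lost in the 6 libraries alone and in each fit without 1 of the 6 libraries.

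CDK inhibitors and other growth arrest genes had no common direction. In introns 4 of 18 were higher and 4 lower, near the shares of all genes (22.2% and 20%). In exons 1 was higher and 3 were lower, against 8.02% and 3.61% of all genes. The falls were of Ccng2, Cdkn2c, Cdkn1b and, in introns, Tob1. Cdkn2a was the only member with a called ratio: its introns were at 3515, 3782 and 2918 against 5143, 5566 and 5739 and its exons at 1179, 1168 and 1471 against 1230, 1238 and 1049, a rise of 0.81 ± 0.16 whose call was lost in the 6 libraries alone (limma, adjusted p = 0.0886). Its exon values overlapped between the groups and its intron values did not.

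Genes of RNA processing and of the ribosome itself had few ratio calls. Their intron counts with equal sums are to be read against all 11506 genes tested, of which 1809 were then higher and 3314 lower. Splicing regulators were higher in ratio in 2 of 46 members and lower in none, and in introns 15 were higher and 4 lower, a split that turned to 6 higher and 11 lower with libraries scaled to equal sums. The count of higher introns was 9 without replicate 3 of either group. The 2 with a ratio call were Hnrnpu, with introns at 8046, 8693 and 7152 against 10755, 9970 and 11127, and Luc7l, with ratio changes of 0.32 and 0.22, and both calls were lost without replicate 3 of either group and in the 6 libraries alone. The call of Luc7l was also lost after centring (limma, adjusted p = 0.154) and without replicate 1 of 0 min or replicate 1 or 2 of 30 min. Genes known for detained introns, introns that stay in finished nuclear transcripts, had no ratio call among 20, and 6 were higher and 1 lower in introns, or 4 and 7 with equal sums. Hosts of small nucleolar RNAs had no ratio call among 30, and 3 were higher and 5 lower in introns, or 2 and 9 with equal sums. Cytosolic ribosomal protein genes had no call in ratio or exons among 71, and 1, Rps9, was lower in introns, with a change of -0.21, against 9 lower with equal sums. The median ratio change of these 71 was 0.14, near the 0.11 of all genes, and 0.02 after centring.

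**Figure D4:**
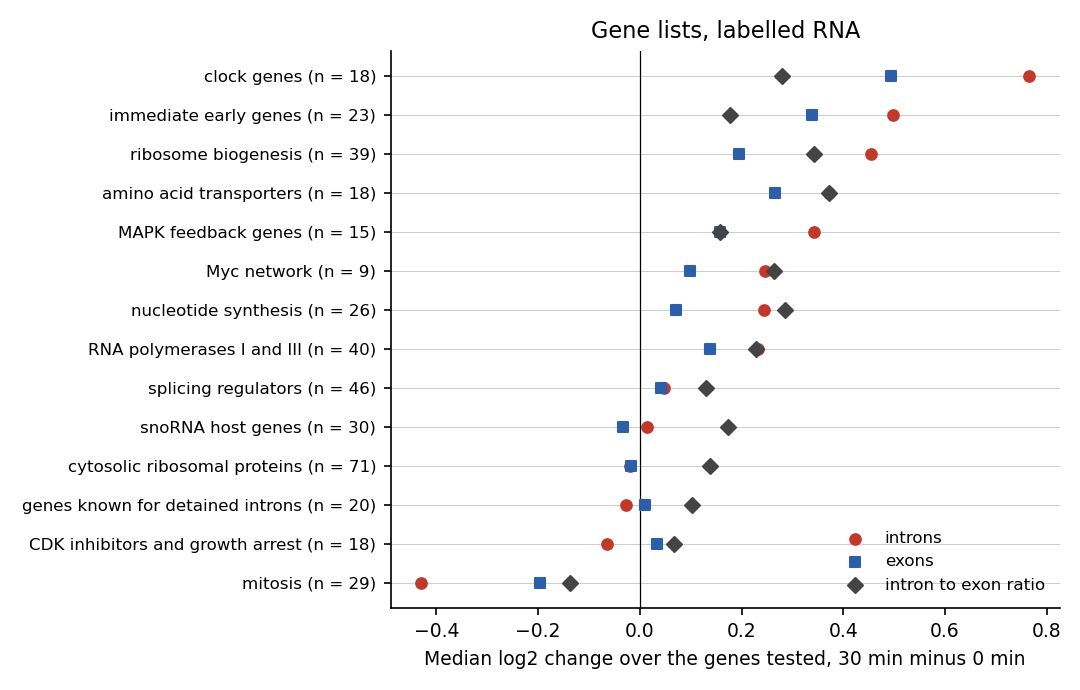
Median log2 change from 0 min to 30 min (horizontal axis) in introns (red circles), exons (blue squares) and intron to exon ratio (grey diamonds) for 14 gene lists, with the number of genes tested for the ratio. Clock genes have the highest intron median (0.77) and mitosis genes the lowest (-0.43), and in both the exon median lies between 0 and the intron median.

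The length of a gene sets how long a polymerase needs to reach its last exon, so changes were set out by the span of the gene in GENCODE M1 (mm9). A span was found for 11313 of the 11513 genes. The share with a higher ratio was 7.52% of genes under 10 kb, 9.93% from 10 to 30 kb, 11.7% from 30 to 100 kb and 8.33% over 100 kb. Of the genes whose introns rose, the exons were also called up in 37.2%, 34.6%, 31.2% and 17.4% in the same order. Of those whose introns fell, exons were also called down in 13.2%, 18.8%, 17.1% and 5.48%. Over all genes tested in each class, exons were called up in 8.11%, 9.04%, 8.62% and 3.97%. They were called down in 2.65%, 4.83%, 4.52% and 0.512%, so the shares over all genes were also lowest over 100 kb. The median intron rise of called genes went from 0.54 in the shortest class to 0.33 in the longest. Median intron values at 0 min also rose with the class, from 148 to 5260, and their part in these shares was not tested.

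The same genes were then read in total RNA, which holds older transcripts as well and was sequenced in separate libraries at the same times. Total introns rose in 1737 genes (15.1%) and fell in 1368 (11.9%), whereas total exons rose in 38 (0.331%) and fell in 4 (0.0348%). Without replicate 3 of 30 min of total RNA 905 introns and 16 exons were called down, and without replicate 2 of 30 min 19 exons were called up and none down. No exon was called down without replicate 1 of 0 min and 1 without replicate 3 of 0 min. Of the 2553 genes with rising labelled introns, 1603 also rose in total introns, which is 62.8% of the labelled and 92.3% of the total calls. Of the 2302 falling, 1124 also fell, or 48.8% and 82.2%. For exons 37 genes rose in both, 4.02% of the labelled and 97.4% of the total calls. Across 11468 genes the labelled and total intron changes had a Pearson r of 0.76, a description over genes, which are not independent replicates.

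The ratio at 30 min was then set against its neighbours in time, in contrasts that leave out the 0 min libraries but share those of 30 min. Between 20 and 30 min 4 genes had a higher ratio (0.0348%) and none a lower one (0%), with 653 at an unadjusted p under 0.05 in either direction (limma). The 4 genes were Rcan1, Smoc1, Arhgap39 and Deptor, with rises of 0.85, 0.72, 0.73 and 0.55, and they span from 74194 bases (Rcan1) to 159607 bases (Smoc1). Rcan1, a calcineurin inhibitor gene, had a log2 ratio of 3.32 ± 0.03 at 20 min and 4.17 ± 0.06 at 30 min (SD, n = 3). No gene was called higher without replicate 2 or 3 of 20 min or replicate 3 of 30 min, and 2 were without replicate 1 of 20 min.

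Between 30 min and 1 h the ratio fell in 47 genes (0.409%) and rose in 1, Dtnb (0.00871%). The median change over all genes was -0.13. The 47 had a median span of 125 kb, and 28 exceeded 100 kb. Among all 11313 genes with a span the median was 25.3 kb and 1563 exceeded 100 kb. By span class, the median change was -0.146 under 10 kb, -0.122 to 30 kb, -0.13 to 100 kb and -0.15 over 100 kb. Median intron values at 0 min were 148 in the shortest class and 5260 in the longest, and their part in these calls was not tested. After centring 27 fell and 9 rose. The count of falls moved with several libraries: 14 genes were left without replicate 2 of 30 min, 10 without replicate 3 of 30 min, 28 without replicate 2 of 1 h and 8 without replicate 3 of 1 h. The genes named next were chosen after their values were seen.

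Among the 47, Arhgap39 and Phtf2 had exons that came up between the 2 times. Arhgap39 had mean exon values of 450.7 ± 91.3 at 0 min, 433 ± 38 at 30 min and 859.7 ± 65.2 at 1 h (SD, n = 3), while its introns went from 3531 ± 329 to 8805 ± 451 and 9783 ± 533. Its log2 ratio was 2.98 at 0 min, 4.34 at 30 min and 3.51 at 1 h, a change of -0.84 ± 0.14 from 30 min to 1 h (limma, adjusted p = 0.0028). Phtf2 had exon means of 757.3, 856.7 and 1697 and intron means of 7289, 15330 and 18490 at the same times. Its ratio change from 30 min to 1 h was -0.71 ± 0.09.

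In Col11a1 and Suclg2, also among the 47, the ratio at 30 min was not called against 0 min. Col11a1, a fibrillar collagen gene, had a log2 ratio of 2.33 ± 0.10 at 0 min, 2.32 ± 0.09 at 30 min and 1.65 ± 0.23 at 1 h, as its intron mean went from 30 min to 1 h from 18590 ± 876 to 10160 ± 2220. Suclg2, a mitochondrial enzyme gene of 245787 bases, had 3.87 ± 0.07, 4.01 ± 0.08 and 3.43 ± 0.07. Its exon means were 733.7 at 0 min, 665.3 at 30 min and 723.3 at 1 h.

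Over the whole course the ratio took different paths in the genes described above. Bop1 had a mean log2 ratio of 0.40 ± 0.22 at 0 min, 1.499 ± 0.09 at 20 min, 1.52 ± 0.13 at 30 min, 1.00 ± 0.08 at 1 h and 0.31 ± 0.22 at 16 h (SD, n = 3). Its intron mean at 16 h, 3214, was still above the 2096 of 0 min, and its exon mean had gone from 1588 to 2597. Rrp9 went from -0.93 to 0.12 at 30 min and -1.09 at 16 h. Smtnl2 went from -4.44 at 0 min to -1.41 at 30 min, -0.24 at 8 h and -0.96 at 16 h. By 8 h its introns had gone from a mean of 6.33 to 189.3 and its exons from 171.3 to 222.7. Nusap1 went from 1.05 to 0.16 at 30 min, 0.15 at 1 h and 1.09 at 4 h, when its introns (954) were still below the 0 min mean of 2187 and its exons had come down from 1053 to 447.7.

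**Figure D5:**
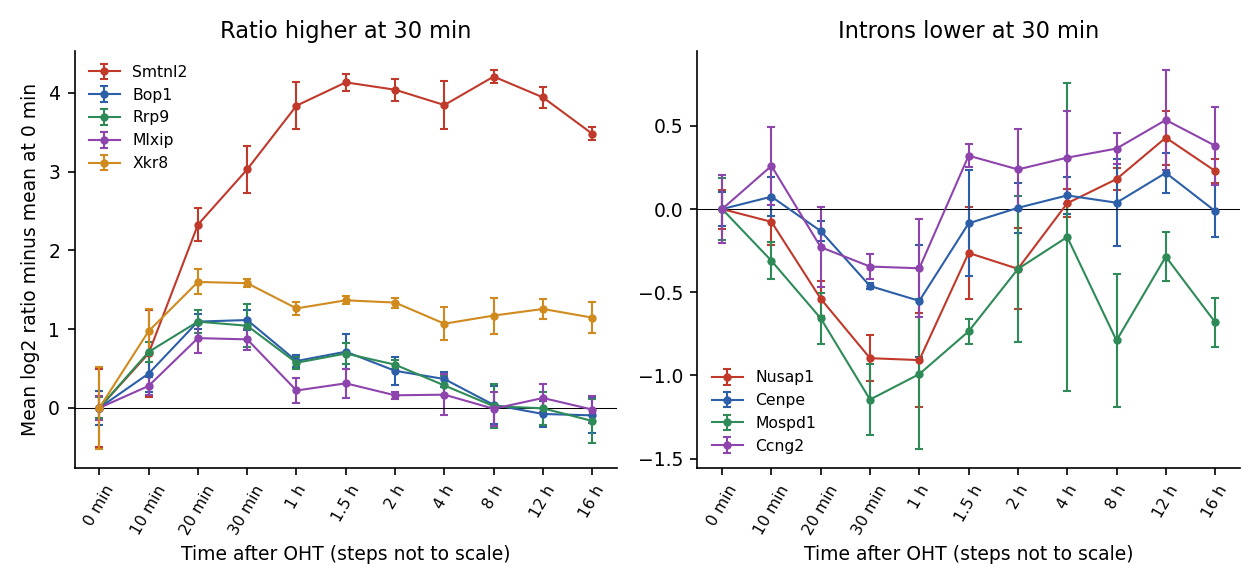
Mean log2 intron to exon ratio less the mean at 0 min (vertical axis) at 11 times after OHT (horizontal axis, steps not to scale) in 3 labelled libraries per time; bars are SD. Smtnl2 stays above its 0 min level to 16 h while Bop1, Rrp9 and Mlxip peak at 20 to 30 min and return, and Nusap1 and Cenpe are lowest at 30 min to 1 h.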

How the data were processed

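RNA was measured by sequencing in 3 labelled libraries per time, and in 3 of total RNA. Per the submitters' processing notes, reads were aligned to mm9 with TopHat and TopHat2 2.0.8. How genes were counted, on which annotation and whether by strand, is not stated in these sources. The deposited gene values are whole numbers named counts, but in 1 h replicate 2 some whole numbers were nearly missing from both the exon and the intron table. They were therefore taken as a score, counts rescaled by the authors, and the true read depth is unknown. The authors also deposited RPKM values, used for markers and 1 alternative. A count model had been planned for raw counts and was not used.

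Genes were kept where 3 or more libraries reached 10. Levels were scaled by trimmed means, log2(value + 1) transformed and fitted with limma 3.58.1 (R 4.3.3) over all 33 labelled libraries, with Benjamini-Hochberg adjustment over all genes. The ratio used the deposited values plus 2, without centring. A fold change on these scales understates the change of low genes. Named genes were the 8 largest called rises and falls in ratio, the 6 in introns and in exons, up to 2 members of each list with the smallest ratio p, and 8 set genes. Those picked for the size of a change also needed groups that do not overlap. The members and lists were chosen with earlier results of these data known. Figures used matplotlib 3.10.9, and positions came from GENCODE M1. The scripts' tests were checked on simulated data. Replicate numbers were not taken to pair the libraries, though pairing was not excluded. A gene that the rule for named genes also picked is not reported here.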

Additional observations from a re-analysis of the deposited data

Results flagged for a closer look

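Mlxip was singled out because its ratio differed between times by a direct contrast. In that contrast 47 genes were called lower, and the median change over all genes was -0.13. Its log2 intron to exon ratio was 0.65 lower at 1 h than at 30 min (change of -0.65; limma, adjusted p = 0.0269), after a rise of 0.87 from 0 min to 30 min. The mean ratios were 1.43 ± 0.16 at 0 min, 2.30 ± 0.14 at 30 min and 1.65 ± 0.16 at 1 h (SD, n = 3). Mean introns went from 9290 at 30 min to 7569 at 1 h and mean exons from 1886 to 2421. Mlxip was named for its ratio at 30 min against 0 min, and the 30 min libraries enter both contrasts. The count of falls moved with several libraries, and whether the call of Mlxip did is not given here.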

How the results depend on the processing

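Limits: the true depth is unknown, the replicates may be technical, and several counts rest on replicate 3 of 0 min and of 30 min. The replicate block gave 1386 higher and 154 lower ratios, 2659 and 2389 intron calls and 1012 and 482 exon calls; for 1 h against 30 min it gave 5 and 133, for 30 min against 20 min 2 and 0, and for total exons 50 and 7. Same-numbered libraries at 0 min and 30 min had correlated deviations of 0.0129, -0.0345 and -0.24 in ratio. Within a time the deviations of a gene cancel out, so these values cannot settle whether the numbers pair the libraries. Introns held a smaller share in replicate 1 than in replicate 2 at every time, such as 71.79% and 74.2% at 0 min. The main fits left replicate numbers out. Under the replicate block the ratio changes of Nr1d1 (limma, adjusted p = 0.0493), Slc30a1 (0.0395), Btg3 (0.0489) and Ncl (0.0325) were called. With the 6 libraries alone 135 ratios were higher and 9 lower, a fit with fewer samples. Lower ratios numbered 629 after centring, 611 from scaled values and 653 with the replicate block and centring; the cause was not tested. Exons gave 491 up and 845 down with no further scaling and 498 up and 842 down from RPKM. After centring, 9 genes rose and 27 fell from 30 min to 1 h, and 11 rose and 2 fell from 20 to 30 min. Leaving out 1 library at a time gave 368 to 1435 higher and 44 to 106 lower ratios, 2148 to 2416 rising and 1774 to 2197 falling introns, and 557 to 830 rising and 183 to 364 falling exons. It gave 1 to 2 rises and 8 to 46 falls from 30 min to 1 h, and 0 to 5 rises and 0 to 1 falls from 20 to 30 min. For total RNA it gave 1341 to 1794 rising and 905 to 1308 falling introns, and 19 to 32 rising and 0 to 16 falling exons. The difference in library medians was 0.0623 to 0.166. Of the values of the named genes over all settings, 829 of the ratio changes were on the same side of the threshold, 83 were lost and 25 gained, and none reversed. The alternatives for the contrasts with 20 min, 1 h and total RNA, and the block with centring, were chosen after seeing the data.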
